A study of Arabidopsis thaliana with 4 samples.

Results

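The genes described here encode 7 auxin transporters of Arabidopsis thaliana, and the question was whether chromatin at these genes was recovered together with the long noncoding RNA APOLO. They were taken as 4 AUX/LAX influx carrier genes, AUX1 (AT2G38120), LAX1 (AT5G01240), LAX2 (AT2G21050) and LAX3 (AT1G77690), and 3 ABCB transporter genes, ABCB1 (AT2G36910), ABCB4 (AT2G47000) and ABCB19 (AT3G28860). A peak was assigned to a gene when any base of it lay in the gene body or within 1 kb on either side. The 7 genes, of 27444 nuclear protein-coding genes, held 68 of the 107288 nuclear peaks in 4 lists.

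The assay was ChIRP-seq, in which biotinylated oligonucleotides complementary to an RNA pull down the RNA and the crosslinked DNA beside it, and that DNA is sequenced. APOLO was targeted with either of 2 probe sets, called ODD and EVEN, and LACZ probes, named after a bacterial gene, served as the control. The libraries were ODD 1, ODD 2, EVEN 1 and LACZ 1, so ODD had 2 libraries and the others 1 each. Per the labels, every library came from Col-0 plants transformed, in the vector pB7WG2, with a 35S promoter driving full-length APOLO, and this includes the LACZ control. The plants were kept on solid MS medium of reduced strength at 23 °C with 16 h light and 8 h dark. The sources used here give neither tissue nor age, the 35S promoter is active in most cell types, and nothing states whether the libraries came from separate plants. No library came from plants with unaltered APOLO levels.

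Auxin moves between plant cells because it is taken up on one side and released on another. AUX1 and the LAX proteins are plasma membrane carriers that bring auxin into the cell together with protons. ABCB proteins of this group use ATP to move auxin across the plasma membrane, and work beside the PIN efflux carriers. APOLO is known as an auxin-responsive noncoding RNA next to PID, a kinase gene that acts on PIN carriers.

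Every one of the 7 genes held peaks, and APOLO probes and control probes both gave them. ODD 1 had 16 peaks at 6 genes, ODD 2 had 28 peaks at 7 genes, EVEN 1 had 15 peaks at 7 genes and LACZ 1 had 9 peaks at 6 genes. Peaks of the ODD 1 and EVEN 1 lists did not overlap: 0 of the 6 genes with both had an overlapping pair. The shares were 42.8% of all coding genes with both and 37.4% of those in the length range of the transporter genes. In the LAX2 window, however, EVEN 1 peaks missed ODD 1 peaks by only 12 and 7 bp. ODD 2 peaks overlapped EVEN 1 in 6 of 28 cases, against 19.1% of all ODD 2 peaks. The strongest ODD 1 peak of each gene that had one was found again in ODD 2, in 6 of 6 genes, at a place with no EVEN 1 peak and no LACZ 1 peak. This held for 67.5% of all coding genes with an ODD 1 peak and for 70.2% of those in the length range of the transporter genes.

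The counts have to be read against how common peaks are. An ODD 1 peak was present at 6 of 7 transporter genes, against 48.9% of all nuclear protein-coding genes. The count was 7 of 7 in ODD 2, against 92.8%, 7 of 7 in EVEN 1, against 55.3%, and 6 of 7 in LACZ 1, against 41.3%. Long genes have more room for peaks, and among the 9245 coding genes in the length range of the transporter genes the shares were 59.2%, 98.0%, 62.5% and 49.9% in the same order. That range runs from 2.58 kb at LAX2 to 7.57 kb at ABCB19, and lengths within it were not matched. The transporter genes thus lay above both backgrounds in ODD 1 and EVEN 1, and also in LACZ 1 with the control probes. In ODD 2 nearly all coding genes had a peak, so 7 of 7 was near both shares. Peaks in all 4 lists occurred at 5 of 7 transporter genes, against 16.0% of all coding genes and 22.4% of those in that length range. With a single EVEN and a single LACZ library, and no value where no peak was called, no test across replicates exists for these counts.

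**Figure D1:**
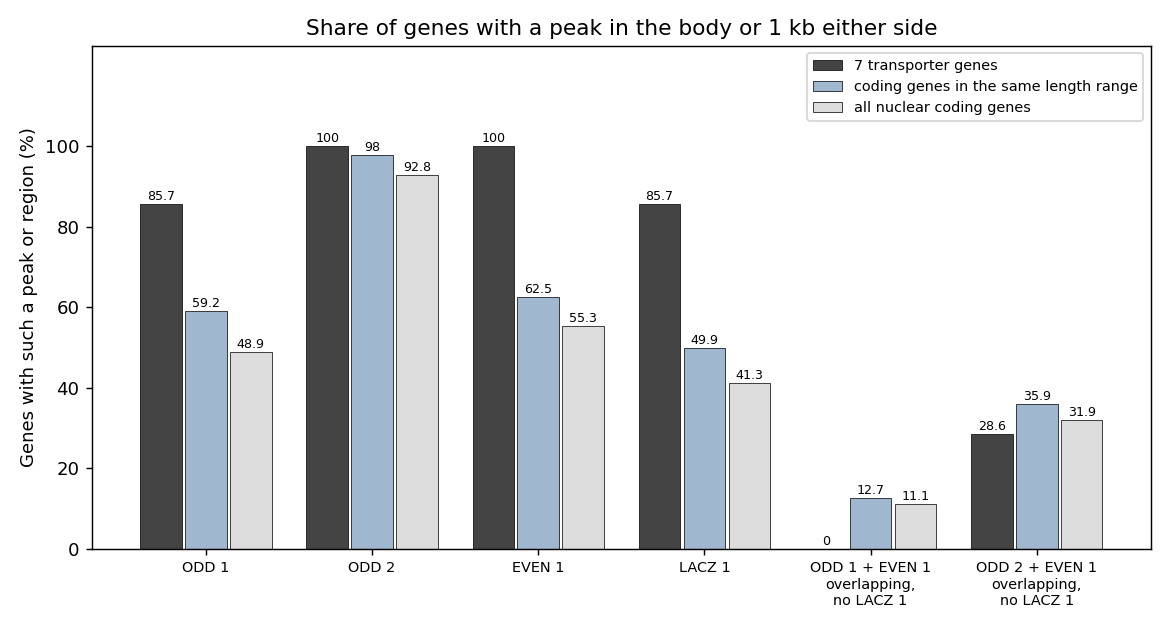
Share of genes (%, bars from 0) with a peak in the body or 1 kb either side, by list, and with an overlapping ODD and EVEN peak free of LACZ 1; dark bars are the 7 transporter genes, blue bars coding genes in the same length range and grey bars all nuclear coding genes. The transporter genes exceed both backgrounds in ODD 1, EVEN 1 and LACZ 1, and have 0% where ODD 1 and EVEN 1 must overlap.

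Per kb of window, peaks were denser than over whole chromosomes in each list. Over the 47.2 kb of the 7 windows, ODD 1 had 0.339 peaks per kb, against 0.135 over the 5 nuclear chromosomes, a ratio of 2.50. The ratio was 1.21 in ODD 2, 1.85 in EVEN 1 and 1.81 in LACZ 1. The control list was thus also denser at these genes than over the chromosomes, by nearly the same ratio as EVEN 1. Whole chromosomes include DNA outside genes, and the density over windows of other coding genes is not given here. In bases covered, the windows had 4.50% in ODD 1, 17.3% in ODD 2, 2.93% in EVEN 1 and 6.18% in LACZ 1, against 1.69%, 10.9%, 1.95% and 3.19% of the chromosomes in the same order.

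The lists differ in depth and in peak width, which limits what can be set side by side. ODD 1 contributed 16126 nuclear peaks, ODD 2 58146, EVEN 1 20470 and LACZ 1 12546. Relative fragment numbers, estimated from the lowest local background of each list, were 1 in ODD 1, 2.94 in ODD 2, 2.19 in EVEN 1 and 1.31 in LACZ 1. Fold enrichment is the authors' value, the pileup of fragments at a summit over a local background, and is used to describe and rank peaks within 1 list. Which library gave that background is not stated in these sources. The relative fragment numbers take it to be the same library. As a check of the probes, the APOLO gene (AT2G34655) had a peak in ODD 1 (fold 16.6), ODD 2 (12.4) and EVEN 1 (14.1), and none in LACZ 1. The ODD and EVEN probes target this very sequence. Whether its DNA was recovered through the RNA or by the probes directly was not tested.

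**Figure D2:**
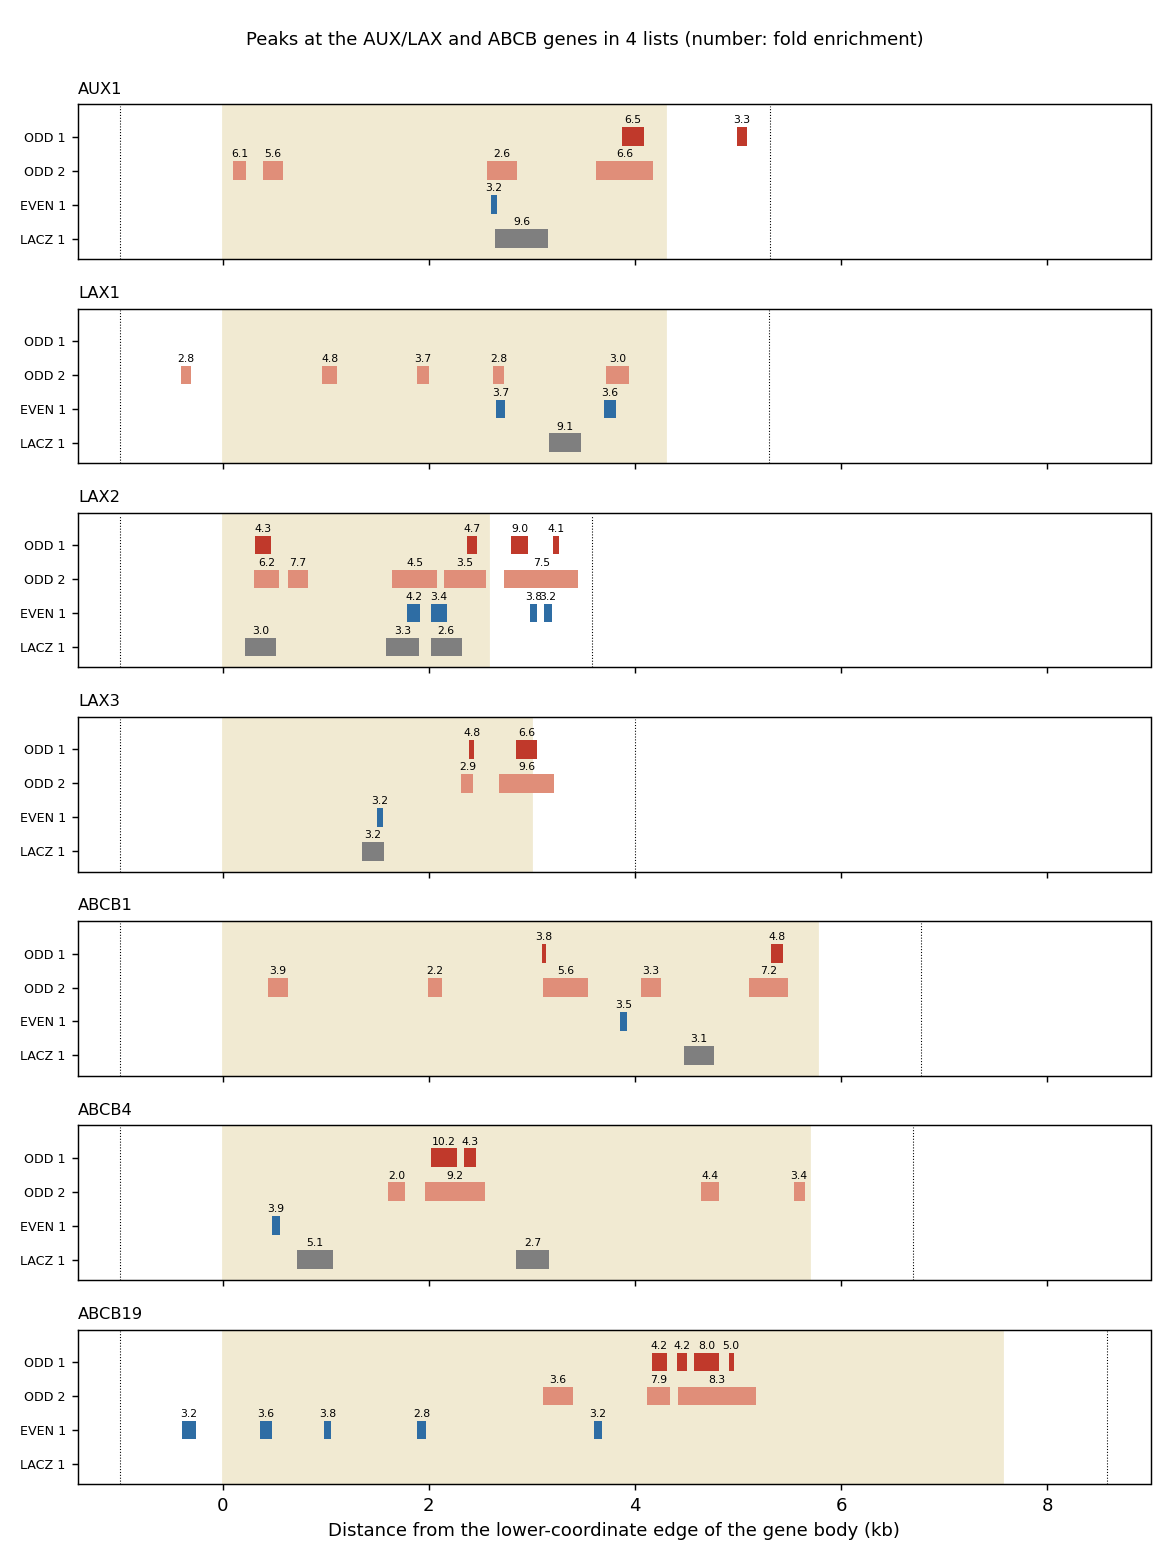
Peaks of the 4 lists at each gene, drawn as bars along the distance in kb from the lower-coordinate edge of the gene body, with the fold enrichment above each bar; shading marks the gene body and dotted lines the 1 kb limits. ODD 1 and ODD 2 bars stand over each other at 6 genes, and no ODD 1 bar touches an EVEN 1 bar.

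AUX1, the influx carrier needed for root gravitropism, had ODD peaks near one end of the gene and a LACZ 1 peak of very high rank inside it. The ODD 1 peak at chr2:15976746-15976961 (TAIR10) had a fold of 6.54, and the ODD 2 peak over it, at chr2:15976500-15977047, had 6.64. Both summits lay at 92 to 93% of the gene body counted from the lower coordinate, 53 bp apart. The LACZ 1 peak at chr2:15975522-15976031 had 81 fragments at its summit and a fold of 9.65. It ranked 65 of the 12546 nuclear LACZ 1 peaks, so the control probes gave one of their strongest enrichments inside AUX1.

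The only EVEN 1 peak at AUX1, at chr2:15975477-15975533 with a fold of 3.15, overlapped that LACZ 1 peak by 12 bp and lay whole within an ODD 2 peak at chr2:15975445-15975727 with a fold of 2.62. It lay 1212 bp from the nearest ODD 1 peak. ODD 2 had a further pair of peaks near the other end of the gene, with folds of 6.09 and 5.56, and neither had a counterpart in ODD 1, EVEN 1 or LACZ 1. A second ODD 1 peak, at chr2:15977869-15977960 in the flank, had a fold of 3.27, ranked at 97.1% of its list from the highest fold, and was the only 1 of the 16 ODD 1 peaks without an ODD 2 peak.

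LAX1, which acts with AUX1 and LAX2 in the placing of leaves around the shoot, was the gene without an ODD 1 peak. ODD 2 had 5 peaks there, with folds of 2.78, 4.77, 3.71, 2.78 and 2.97 in order of coordinate. EVEN 1 had 2 peaks, at chr5:100187-100275 (fold 3.68) and chr5:101232-101355 (fold 3.62). Each of these overlapped an ODD 2 peak, by 82 and 105 bp, and neither touched the LACZ 1 peak. The ODD 2 peaks concerned, with folds of 2.78 and 2.97, ranked low in their list, at 72.4% and 65.1% from the highest fold.

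The LACZ 1 peak of LAX1 lay between them, at chr5:100699-101010, with 83 fragments at the summit, a fold of 9.07 and rank 83 of its list. It was 240 bp from the nearest ODD 2 peak and 221 bp from the nearest EVEN 1 peak. As at AUX1, the strongest peak relative to its own list was that of the control probes. The ODD 2 peak at the other side of LAX1, at chr5:97136-97229, overlapped the neighbouring lncRNA gene AT5G00745 and not LAX1 itself.

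LAX2, known for its part in vascular patterning of cotyledons, had the most crowded window, and its strongest ODD 1 peak lay in the neighbouring gene. ODD 1 had 4 peaks, ODD 2 had 5, EVEN 1 had 4 and LACZ 1 had 3. The ODD 1 peak at chr2:9036852-9037021, with a fold of 9.04 and a rank of 9.30% from the highest fold, lay in GRP2B (AT2G21060), a gene for a glycine-rich protein. A single ODD 2 peak of 719 bp, at chr2:9036789-9037507 with a fold of 7.55, covered it together with a weaker ODD 1 peak at chr2:9037256-9037322 (fold 4.06). The strongest ODD 2 peak of the window, at chr2:9034692-9034884 with a fold of 7.73, lay inside LAX2 and overlapped no peak of another list.

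Between those 2 ODD 1 peaks, and under the same ODD 2 peak, stood 2 EVEN 1 peaks, at chr2:9037034-9037106 (fold 3.76) and chr2:9037174-9037248 (fold 3.22). They missed the ODD 1 peaks by 12 and 7 bp, the smallest gaps between ODD 1 and EVEN 1 at any of the 7 genes, and LACZ 1 had no peak there. The 2 EVEN 1 peaks in the LAX2 gene body, with folds of 4.20 and 3.41, both overlapped a LACZ 1 peak. The fold of 4.20 was the highest that EVEN 1 reached at any of the 7 genes. All 3 LACZ 1 peaks in LAX2, with folds of 3.04, 3.32 and 2.63, overlapped an ODD 2 peak.

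LAX3, an influx carrier that acts where lateral roots emerge, had its ODD peaks at the higher-coordinate edge. The ODD 1 peak at chr1:29203267-29203467 had a fold of 6.64, with its summit at 100.1% of the gene body, just past the edge. The ODD 2 peak at chr1:29203094-29203635 had a fold of 9.56, ranked at 5.10% from the highest fold, and had its summit 21 bp away. This was the highest ODD 2 fold at the 7 genes. A smaller pair of overlapping ODD peaks, with folds of 4.83 in ODD 1 and 2.88 in ODD 2, lay inside the gene. The EVEN 1 peak at chr1:29201913-29201977, with a fold of 3.15, lay whole within the LACZ 1 peak at chr1:29201769-29201981, with a fold of 3.18, and 831 bp from the nearest ODD 1 peak.

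ABCB1, a plasma membrane auxin exporter first described as a P-glycoprotein, had the weakest ODD 1 maximum of the 6 genes. Its ODD 1 peaks, at chr2:15504819-15504865 and chr2:15507041-15507159, had folds of 3.84 and 4.78. The overlapping ODD 2 peaks had 5.62 and 7.20, and 3 further ODD 2 peaks had folds from 2.19 to 3.88. Both ODD libraries thus placed their strongest signal at the same site, with summits at 92.7% and 93.6% of the gene body. The EVEN 1 peak at chr2:15505585-15505646 (fold 3.52) and the LACZ 1 peak at chr2:15506204-15506492 (fold 3.08) overlapped no peak of another list.

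ABCB4, an auxin transporter of the root epidermis, had the strongest ODD 1 peak of the 7 genes. The peak at chr2:19311664-19311917 had 30 fragments at the summit over a local background of 2.05, a fold of 10.2, and ranked 1026 of 16126. The ODD 2 peak over it, at chr2:19311610-19312188, had 121 fragments over 12.3, a fold of 9.18, and also covered a second ODD 1 peak with a fold of 4.29. The summits were 19 bp apart, at 36% to 37% of the gene body, so this site was internal and not at an edge. Its EVEN 1 peak at chr2:19310119-19310200 (fold 3.91) lay 1463 bp from the nearest ODD 1 peak.

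Control signal was also present in ABCB4. LACZ 1 had a peak at chr2:19310363-19310711 with a fold of 5.14, which ranked at 4.97% of its list, and one at chr2:19312490-19312804 with a fold of 2.73. Neither overlapped a peak of the APOLO probes, the second lying 301 bp from the strong ODD 2 peak. The last ODD 2 peak in the gene, with a fold of 3.41, also overlapped the lncRNA gene AT2G09775. The window also reached IAA20, an Aux/IAA gene, and AT2G46995, and no peak lay on either within it. The same held for the lncRNA gene AT2G08935 beside AUX1 and for AT5G01250 beside LAX1.

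ABCB19, the close relative of ABCB1 that carries auxin down the stem, was the gene without a LACZ 1 peak. Its ODD peaks formed a cluster: 4 ODD 1 peaks between 10874165 and 10874962 of chromosome 3 had folds of 4.15, 4.18, 8.03 and 4.99 in order of coordinate. The first lay within an ODD 2 peak at chr3:10874121-10874348 (fold 7.90), and the other 3 overlapped an ODD 2 peak of 759 bp at chr3:10874423-10875181 (fold 8.28). The wider one stood among the widest 0.8% of the ODD 2 list. EVEN 1 had 5 peaks here, its largest number at any of the 7 genes, with folds of 2.85 to 3.84. They were spread from 10869615 to 10873683, all on the lower-coordinate side of that cluster, and the nearest lay 481 bp from an ODD 1 peak and 437 bp from an ODD 2 peak of it. A further ODD 2 peak, at chr3:10873116-10873399 (fold 3.58), stood among the EVEN 1 peaks, 209 bp from the nearest, and overlapped none.

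Set side by side, the strongest ODD 1 peaks had folds of 10.2 at ABCB4, 9.04 in the LAX2 window, 8.03 at ABCB19, 6.64 at LAX3, 6.54 at AUX1 and 4.78 at ABCB1. The ODD 2 peaks over them had folds of 9.18, 7.55, 8.28, 9.56, 6.64 and 7.20 in the same order. LAX3 came first in ODD 2 but behind ABCB4, LAX2 and ABCB19 in ODD 1, so the order among these 6 genes was not kept between the 2 ODD libraries. The summits of the 2 libraries were 19 to 56 bp apart. The ODD 2 peaks were 2.28 to 4.23 times as wide as the ODD 1 peaks they covered.

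**Figure D3:**
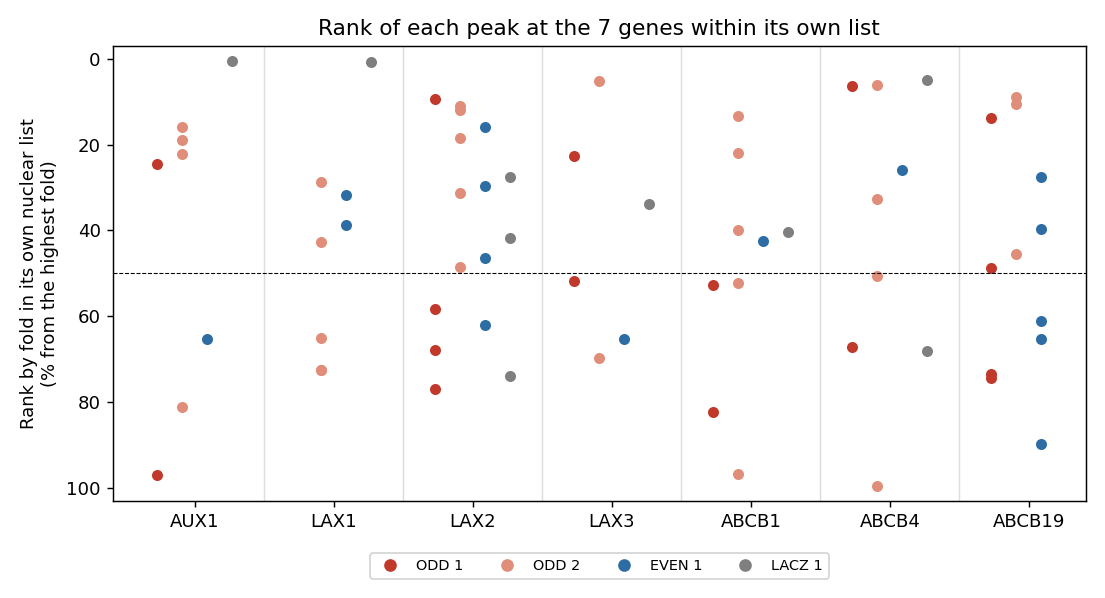
Rank of each peak by fold enrichment within its own nuclear list (%, 0 at the highest fold, top of the axis), by gene and list; the dashed line marks 50%, and 2 ODD 2 peaks of LAX1 coincide at 72.4%. The highest-ranked points of the plot are the LACZ 1 peaks in AUX1 and LAX1, at 0.518% and 0.662%, and no EVEN 1 point lies in the first 10%.

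By rank within the lists, peaks at the 7 genes were widely spread, and the lists differed. The median rank from the highest fold was 55.5% in ODD 1, 32.0% in ODD 2, 42.5% in EVEN 1 and 33.7% in LACZ 1. The upper 50% of the list held 6 of 16, 19 of 28, 9 of 15 and 7 of 9 peaks in the same order. ODD 1 folds ranged from 3.27 to 10.2 with a median of 4.72, against 4.93 for the whole list, and 2 of 16 were in the first 10%. ODD 2 folds ranged from 1.98 to 9.56 with a median of 4.46, against 3.44 for the whole list, and 3 of 28 were in the first 10%. EVEN 1 folds ranged from 2.85 to 4.20 with a median of 3.52, against 3.41, and 0 of 15 were in the first 10%. LACZ 1 folds ranged from 2.63 to 9.65 with a median of 3.18, against 2.93, and 3 of 9 were in the first 10%.

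Many of these peaks rested on few fragments. ODD 1 peaks held 7 to 30 fragments at the summit with a median of 10.5, ODD 2 peaks 20 to 121 with a median of 45.5, EVEN 1 peaks 10 to 17 with a median of 13 and LACZ 1 peaks 18 to 83 with a median of 23. The largest −log10 q of an EVEN 1 peak was 4.51. When −log10 q had to reach 5, ODD 1 kept 6 of 16 peaks, at 5 genes, ODD 2 kept 23 of 28, at 7 genes, EVEN 1 kept 0 of 15 and LACZ 1 kept 4 of 9, at 4 genes. Under that threshold ABCB1 lost its ODD 1 peaks, while the other 5 genes kept at least 1 each. The share of each whole list that reaches this threshold is not given here. The counts therefore do not show whether peaks at these genes were lost more often than others.

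ODD 1 peaks at these genes overlapped ODD 2 peaks and no EVEN 1 peak. Of the ODD 1 peaks at these genes, 15 of 16 (93.8%, exact Clopper-Pearson 95% interval 69.8 to 99.8) overlapped an ODD 2 peak, against 94.8% of all ODD 1 peaks, so they were found again about as often as any ODD 1 peak. With EVEN 1 the count was 0 of 16, which allows a share of up to 18.8% when 3 counts are taken as the limit (20.6% by Clopper-Pearson), against 24.0% of all ODD 1 peaks. With LACZ 1 it was 1 of 16 (6.25%, 0.158 to 30.2), against 13.4%. The interval and the limit cover counting error only and take peaks as independent, and several peaks here are neighbours at 1 gene.

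**Figure D4:**
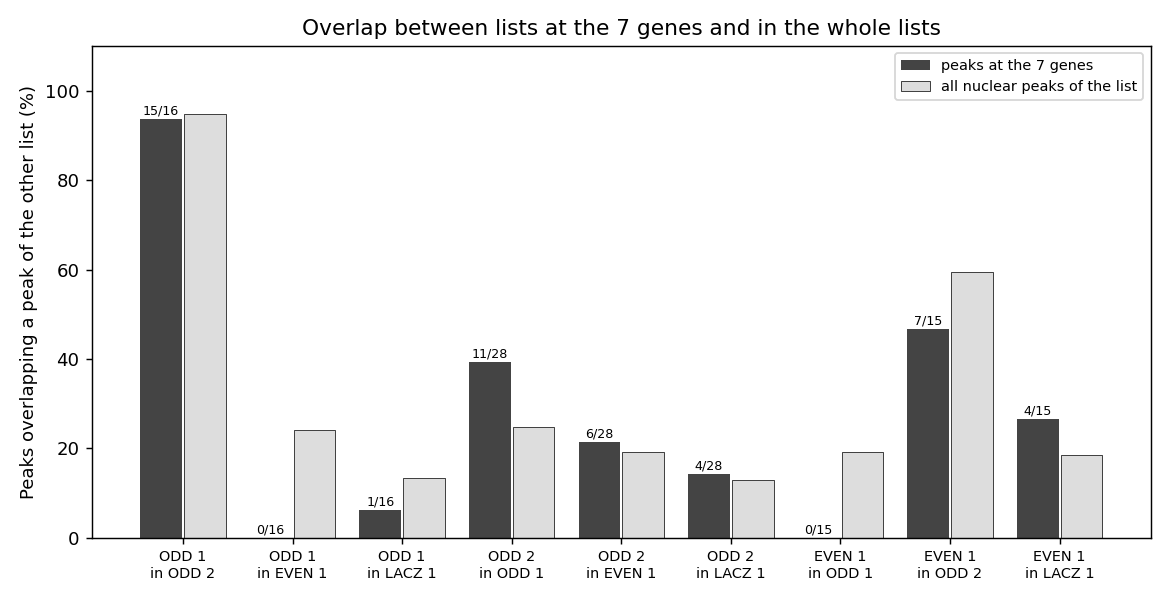
Share of peaks (%) that overlap a peak of another list by at least 1 bp; dark bars are peaks at the 7 genes, with counts above, and grey bars all nuclear peaks of the list. ODD 1 in ODD 2 stands at 15 of 16 beside 94.8%, while ODD 1 in EVEN 1 stands at 0 of 16 beside 24.0%.

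The peaks of the other lists were compared in the same way. EVEN 1 peaks at the 7 genes overlapped ODD 1 in 0 of 15 cases, against 19.1% of all EVEN 1 peaks, ODD 2 in 7 of 15, against 59.5%, and LACZ 1 in 4 of 15, against 18.6%. ODD 2 peaks overlapped ODD 1 in 11 of 28 cases, against 24.7%, EVEN 1 in 6 of 28, against 19.1%, and LACZ 1 in 4 of 28, against 13.0%. Of the ODD 2 peaks, 13 of 28 overlapped no peak of another list, against 57.2%. LACZ 1 peaks overlapped ODD 1 in 1 of 9 cases, against 15.6%, ODD 2 in 4 of 9, against 56.0%, and EVEN 1 in 4 of 9, against 26.6%.

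An ODD 1 peak that overlapped ODD 2 but neither EVEN 1 nor LACZ 1 was the usual case here, with 14 of 16, against 65.2% of all ODD 1 peaks. The exceptions were the unrepeated flank peak of AUX1 and the LAX2 peak at chr2:9034368-9034523 (fold 4.26), which lay whole within a LACZ 1 peak. At least 1 such peak occurred at 6 of 7 transporter genes, against 36.6% of all coding genes and 46.5% of those in their length range. Having an ODD 1 and an EVEN 1 peak in the window was common too, at 6 of 7 genes. Among all coding genes the share was 31.3%, and in that length range 40.2%. An overlapping pair was found at 0 of the 6 transporter genes with both. The shares were 42.8% of all coding genes with both and 37.4% of those in that length range.

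A region held by ODD 1 and EVEN 1 and free of LACZ 1 was therefore found at 0 of 7 genes. Among all coding genes 11.1% had one, and among those in the length range of the transporter genes 12.7%. With ODD 2 in place of ODD 1 such a region was found at 2 of 7, LAX1 and the GRP2B side of the LAX2 window. The shares were 31.9% of all coding genes and 35.9% of those in that length range. Neither count at the 7 genes was above its background.

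The 2 families differed in how EVEN 1 peaks related to the other lists. At the AUX/LAX genes, 0 of 8 EVEN 1 peaks stood alone: 4 overlapped ODD 2 and not LACZ 1, as did 45.9% of all EVEN 1 peaks, and the other 4 overlapped LACZ 1. At the ABCB genes, 7 of 7 EVEN 1 peaks overlapped no peak of ODD 1, ODD 2 or LACZ 1, against 35.1% of all EVEN 1 peaks. LACZ 1 peaks showed a like split, since 3 of 3 at ABCB genes and 1 of 6 at AUX/LAX genes overlapped no other list, against 38.4% of all LACZ 1 peaks. ODD 1 peaks at the ABCB genes overlapped ODD 2 alone in 8 of 8 cases, and those at AUX/LAX genes in 6 of 8. Peaks of each list were sparser at the ABCB genes. ODD 2 had 0.479 and LACZ 1 0.120 peaks per kb there, against 0.721 and 0.270 at the AUX/LAX genes. Of the 7 EVEN 1 peaks at ABCB genes, 5 stand at ABCB19, where LACZ 1 had no peak to overlap. All of these are descriptions of few peaks, and no difference between the families was tested.

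Merging peaks that overlapped gave 40 separate sites at the 7 genes. Of these, 25 were in 1 list, against 64.9% of all nuclear sites merged in the same way, 11 in 2, against 25.2%, 3 in 3, against 7.99%, and 1 in 4, against 1.84%. The counts were near those shares. ODD 2 alone accounted for 13 sites and ODD 1 with ODD 2 for 8. The single site in 4 lists, at chr2:9035643-9036612 in LAX2, was a chain in which the ODD 1 peak touched only the ODD 2 peak. The counted peak reaching farthest from its gene was the ODD 2 peak over GRP2B (fold 7.55). Between 1 and 2 kb, and so not counted, lay only an ODD 2 peak beside LAX1 (fold 2.20) and a LACZ 1 peak beside LAX3 (fold 3.04).

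The other auxin transport genes were 21 in number: PIN, PILS and further ABCB genes, the ABCB-binding immunophilin gene TWD1, the AUX1 trafficking gene AXR4 and BIG. ODD 1 had a peak at 11 of 21, ODD 2 at 19, EVEN 1 at 15 and LACZ 1 at 11. In shares these were 52.4%, 90.5%, 71.4% and 52.4% in the same order, against 48.9%, 92.8%, 55.3% and 41.3% of all coding genes. Among coding genes in the length range of the transporter genes the shares were 59.2%, 98.0%, 62.5% and 49.9%. ODD 1 thus lay above the first background and below the second. ODD 2 lay below both, EVEN 1 lay above both, and LACZ 1 lay above the first and near the second. Not all of the 21 genes lie in that length range. A region shared by ODD 1 and EVEN 1 and free of LACZ 1 was found at 1 of 21 (4.76%), against 11.1% of all coding genes. Among coding genes in that length range the share was 12.7%. The 1 gene with such a region was the efflux carrier gene PIN7, at chr1:8183362-8183420, where ODD 1 had a fold of 3.34 and EVEN 1 one of 3.58. This ODD 1 fold was among the lowest 10% of its list, which lay below 3.63. The PIN7 window also held, outside the shared region, an ODD 1 peak of fold 11.3 and a LACZ 1 peak of fold 3.32. Among the other ABCB genes, ABCB6, ABCB14, ABCB15, ABCB20 and ABCB21 each had ODD 1, ODD 2 and EVEN 1 peaks and no such region, with the highest ODD 1 fold, 10.2, at ABCB15. LACZ 1 had peaks at 4 of these 5, ABCB20 being the one without. The share of all coding genes with ODD 1, ODD 2 and EVEN 1 peaks together is not given here, so these ABCB genes stand without a background.

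The genes whose profile was most like that of ABCB4 were sought by the distance between log2(1 + highest fold in the window) over the 4 lists, with 0 for no peak. The nearest were AT1G72890 (distance 0.16), the DNA gyrase subunit gene GYRA (AT3G10690, 0.23) and the homeobox gene HAT2 (AT5G47370, 0.23). Their highest ODD 1 folds were 11.0, 10.3 and 10.2, and their highest LACZ 1 folds 4.87, 4.30 and 4.27.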

How the data were processed

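The authors deposited 1 peak list per library on TAIR10. Per the submitters' processing notes, CASAVA 1.8.2, Trimmomatic, Bowtie2 and MACS2 were used, the last 3 without a version. Calling options, and whether a control library entered the calling, are not stated in these sources. The deposited columns, per the file headers, are the summit's pileup signal, its fold enrichment and −log10 of the p-value and q-value, and every q-value was at most 0.0496. Reads were not used, so absolute depth is unknown. MACS2 divides the pileup plus 1 by the background plus 1, which returns the local background; its lowest value over the shortest peak gave the relative fragment numbers.

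Only nuclear peaks were used, and overlap meant at least 1 bp. Gene bodies came from a RefSeq table of TAIR10.1, whose coordinates are not printed. Its fit was checked: the share of summits within 200 bp of a coding gene's edge was lowest at a shift of 0 in 10 of 10 chromosome parts, with shifts up to 3000 bp tested every 50 bp. The table holds no strand, exons or untranslated regions, and no genome sequence was used, so motifs were not analysed here. Chromosome lengths were taken as the last position of any gene or peak. Overlap rules were tested on simulated peaks. Python 3.11.15, pandas 2.3.3 and scipy 1.17.1 were used.

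The genes and lists were chosen with earlier results of these data known. Named were all 7 genes, genes overlapping their peaks or in their windows, list genes with a shared region, and the 3 genes nearest to the one of highest ODD 1 fold. The further ABCB genes were named after their values were seen, to complete that count.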

Additional observations from a re-analysis of the deposited data

How the results depend on the processing

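Of 60 values recomputed under another setting, 50 stayed equal or within 1.5 times and 10 moved further. The 60 include values that a setting could not change, so this tally does not measure stability. With −log10 q of at least 5, ODD 1 had 6 peaks at the 7 genes, EVEN 1 had 0 peaks at 0 genes and LACZ 1 had 4 peaks, with no whole-list share beside them. With each list kept to the length of the shortest, ODD 2 had 10 peaks and EVEN 1 had 9. Genes with a region shared by ODD and EVEN and free of LACZ numbered 0 with 2 kb on either side. The planned settings on gene body, summit, overlap, distance from LACZ, list length and q could not raise that 0, so they say nothing of its stability. That number was 0 to 2 when one ODD library was left out, 2 being the count without ODD 1. ODD 2 is not part of the rule, so leaving it out could not change the count. The number was also 2, LAX2 and ABCB19, when ODD 1 and EVEN 1 peaks within 500 bp counted as shared. That setting was chosen after seeing the data, and so was the background of coding genes in the length range of the transporter genes. Peaks of both ODD libraries numbered 44, and 16 to 28 when one was left out, which only restates the count of each library. No paired analysis was possible because only ODD has a second library, so the groups share a single number. The depth of single libraries limits all counts, since a missing peak can be a missed call.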
